A study of Drosophila melanogaster with 8 samples.

Results

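The translation initiation and elongation factors of the fruit fly were followed in RNA of the larval dorsal vessel, the tube under the dorsal midline that pumps the hemolymph. Genes were taken by their symbol on the array, every one that begins with eIF, eEF, Ef1 or Ef2. This gave 27 genes of 13302 on the array, measured by 30 of 14456 gene oligonucleotides on 45 spots. All 27 were matched to a current RefSeq name, which is given in parentheses where it differs. Neither the rule nor the symbols used any measured value, but the genes were chosen with earlier results of these data known.

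The RNA came from larvae in the third instar of Drosophila melanogaster, of the strain labelled WT (yw; Canton S), raised at 25 °C. On 4 arrays the posterior heart was compared with the anterior aorta, cut apart by hand at the cardiovascular valve, in pools of 10 individuals. On 4 other arrays RNA of the entire dorsal vessel was set against RNA of whole larvae that were siblings, in pools of 5 individuals. Each array carried the 2 RNAs of 1 biological replicate after 2 rounds of linear amplification, one in Cy3 and the other in Cy5. In replicates 1 and 2 the aorta or the dorsal vessel was in Cy3, and in replicates 3 and 4 it was in Cy5. Ratios are given as heart over aorta and as dorsal vessel over whole larva on the log2 scale.

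Initiation factors bring the small ribosomal subunit and the initiator tRNA to a messenger RNA. The eIF2 complex delivers the tRNA, eIF2B recharges eIF2 with GTP, eIF3 is the large scaffold on the small subunit, and eIF4E, eIF4G and eIF4A bind and unwind the capped end of the message. Elongation factors then drive the cycle of the ribosome along the coding sequence: eEF1A (the alpha subunit) carries aminoacyl-tRNA, the beta, delta and gamma subunits form the complex that recharges it, and eEF2 moves the ribosome by a codon. These genes are in use in all growing tissues, and some have a second gene copy.

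The median gene spot gave 1.22 to 2.48 fluorescence units (RFU) per channel, and 25.2 to 51.1% of the gene oligonucleotides were above the detection level of a channel, the 95th percentile of its negative and empty spots. An oligonucleotide was tested where at least 2 of the 4 arrays were above that level in either RNA. Log2 ratios of dim spots understate a change. Of 10 midgut markers, 8 were on the array. Their summed signal above local background ranged from 16.7 to 1431 RFU in heart and from 31.4 to 1952 RFU in aorta, and their median log2 ratio was 3.97, 1.28, -5.06 and -5.70 on heart and aorta replicates 1 to 4. The salivary gland markers (5 of 5 on the array) had medians of 3.67, 2.44, -3.42 and 0.15 on the same arrays. Of 9 tested hemocyte and lymph gland oligonucleotides 6 were higher in heart, with medians of 1.14, 1.00, 2.03 and 0.84 and a summed signal of 629 to 1296 RFU in heart and 138 to 244 RFU in aorta. Against the whole larva, the 5 fat body markers summed to 34.2 to 127 RFU in the vessel and 1007 to 2900 RFU in the larva. Of the 17 dorsal vessel muscle markers, prc was above detection on no array. Against the larva 6 of the 17 tested oligonucleotides of these markers were higher and 4 lower (limma adjusted p under 0.05). The other 7 did not pass, and the median was 0.01. Over all oligonucleotides 14.2% were higher and 21.9% lower. The highest marker was the cardiac factor Hand at 5.56. The 4 lower ones were svp at -2.19, Act57B at -2.12, Mhc at -1.91 and up at -1.02. The part of these shifts in the results below was not tested.

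Across all tested oligonucleotides, the heart and aorta arrays correlated at 0.482 between replicates 1 and 2 and at 0.473 between replicates 3 and 4, which share their dyes. Between opposite dyes the correlation was -0.473 to 0.172. Among the dorsal vessel and larva arrays it was 0.789 to 0.825 between opposite dyes, and 0.889 and 0.857 between shared dyes. The 23 tested factor oligonucleotides followed the same split: r was 0.799 between heart and aorta replicates 1 and 2, 0.605 between replicates 3 and 4, and -0.327 to -0.207 between opposite dyes. On the vessel and larva arrays r of the factors was 0.905 and 0.613 between shared dyes. Between opposite dyes it was 0.262 to 0.703 there. These values describe points that share an array and a dye, and they carry no test. Between heart and aorta the midgut medians given above changed sign along the same split of replicates. Dye and tissue content therefore cannot be told apart there.

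The factor spots lay in 17 of the 24 blocks of the array, and 0 of them carried a bad mark on any of the 8 arrays. More than 1 oligonucleotide was spotted for 2 genes, eIF-4a with 3 and eIF-4E with 2. In each comparison 23 oligonucleotides of 21 genes were tested. On all 4 arrays and in both RNAs, 20 oligonucleotides were above detection for heart and aorta and 16 for vessel and larva.

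One factor lay in a block with a displaced grid. In the block of column 1, row 12, which holds 553 gene oligonucleotides and the eIF-4G (eIF4G1) spot, the log intensities of 3 arrays correlated with those of the other arrays at -0.0265 (heart and aorta replicate 3), 0.163 and 0.173 (vessel and larva replicates 1 and 2). Moved by 1 spot column, and on the heart and aorta array also by 1 spot row, the same blocks correlated at 0.974, 0.921 and 0.958, while that block reached 0.953 to 0.966 in place on the other 5 arrays and all other blocks 0.806 to 0.984. On the vessel and larva arrays concerned, the spot listed as eIF-4G fits the position of B52, and on the heart and aorta array that of fos28F. Each eIF-4G value is therefore given as listed and at the position where its grid was found.

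No initiation or elongation factor passed the test between heart and aorta. Of the 23 tested oligonucleotides 0 passed an adjusted p of 0.05 in limma, where 2.65% of all 6008 tested oligonucleotides did (1.88% higher and 0.766% lower in heart). Before adjustment 6 had p under 0.05 (26.1%), against 21.0% of all, 5 of them below 0 (21.7%, against 10.5% of all), namely eIF-1A above 0 and the 16-spot oligonucleotide of eIF-4a, Ef1alpha48D, eIF-2beta, eIF-4G and eIF2B-delta below it. These counts take the displaced eIF-4G spot as listed. Read at its found position, eIF-4G had an unadjusted p of 0.290 in limma, and 5 of the 23 were under 0.05. The same sign on all 4 arrays was seen in 6 of 23 (26.1%), against 25.2%. The values leaned to the aorta side: 19 of 23 log2 ratios were negative (82.6%), against 49.8% of all. The median of the factors was -0.22, with -0.27, -0.18, -0.06 and -0.43 on replicates 1 to 4, and that of all tested oligonucleotides was 0.00. The sign of the factor median turned with the scaling. With each array centred on its median in place of loess, the factor median was 0.10 beside 0.16 for all oligonucleotides, and 7 of 23 were negative beside 26.2% of all. Under the same centring the calls of all oligonucleotides split into 89 higher and 8 lower, from 113 and 46 with loess.

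Between dorsal vessel and whole larva, Ef1alpha100E was lower in the vessel, Ef1beta was higher, and eIF-4G passed the test only where its displaced spots were read as listed. These 3 of 23 tested oligonucleotides (13%) compare with 36.1% of all 7057 tested oligonucleotides past the same threshold (14.2% higher and 21.9% lower). Before adjustment 4 had p under 0.05 (17.4%), against 49.6% of all, and 2 of them were lower (8.7%, against 29.5%). The same sign on all 4 arrays was seen in 6 of 23 (26.1%), against 62.0%. The log2 ratio was negative in 9 (39.1%), against 54.5%. The factor median was 0.07, with -0.09, -0.04, -0.04 and 0.34 on replicates 1 to 4, beside -0.06 for all. Replicate 4 held the highest ratio of 14 of the 23. In bulk RNA, fewer cells of a type and less RNA per cell cannot be told apart in these ratios.

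**Figure D1:**
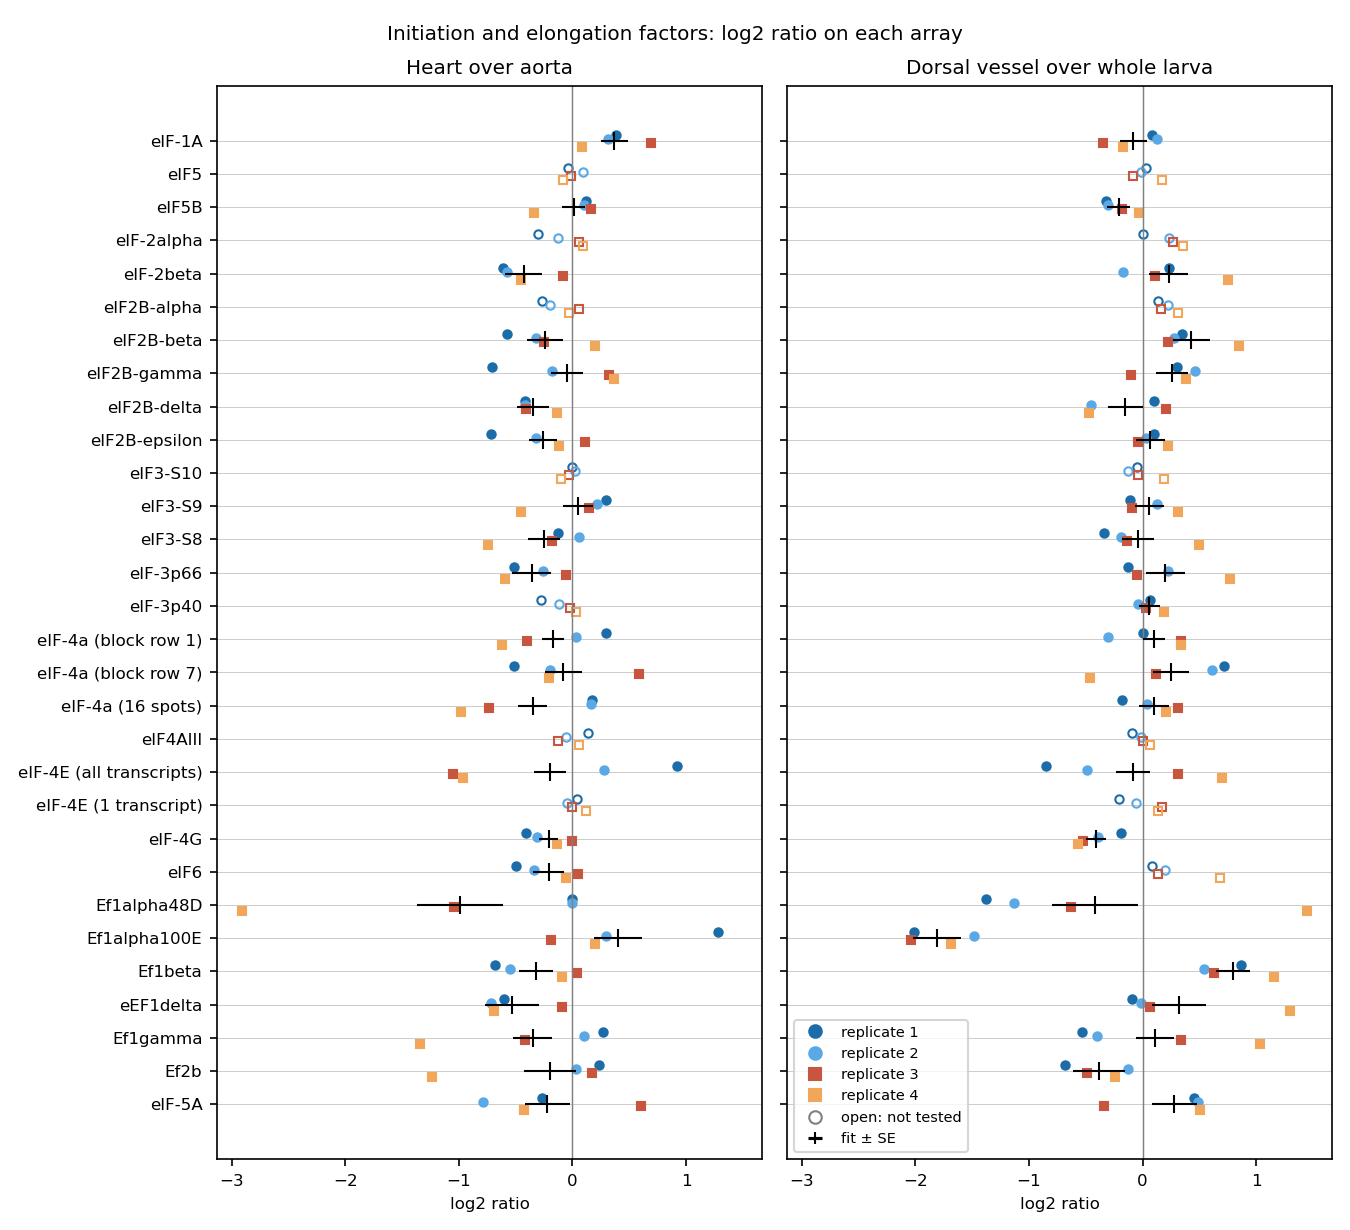
Log2 ratio (x axis) of each of the 30 factor oligonucleotides (rows) on each array, for heart over aorta at the left and dorsal vessel over whole larva at the right. Circles are replicates 1 and 2 and squares replicates 3 and 4, with the dyes exchanged. Open symbols mark oligonucleotides that were not tested, and black bars the fitted value with its SE. On the vessel side all 4 arrays lie between -2.04 and -1.48 for Ef1alpha100E and between 0.54 and 1.16 for Ef1beta.

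The scanning factor eIF-1A (eIF1A), which holds the small subunit open while it searches for the start codon, had the lowest p of the factors between heart and aorta. Before dye normalisation its signal was 259, 281, 299 and 269 RFU in heart on replicates 1 to 4. In aorta it was 155, 168, 167 and 175 RFU. After dye normalisation the log2 ratios were 0.38, 0.31, 0.69 and 0.08, all positive. The fitted value was 0.37 (SE 0.12, n = 4), 1.29-fold, with a limma adjusted p of 0.148. Against the whole larva its ratios were 0.08, 0.13, -0.35 and -0.17, and the fit gave -0.08 (95% interval -0.37 to 0.21).

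Of the factors that complete start codon recognition, eIF5, the activator of the eIF2 GTPase, was above detection on no array in any RNA. The subunit joining factor eIF5B had ratios of 0.12, 0.10, 0.16 and -0.34 between heart and aorta. Against the larva they were -0.32, -0.30, -0.18 and -0.03, negative on all 4 arrays, with a fit of -0.21 (SE 0.10, adjusted p = 0.150). Its vessel signal of 1.47 to 3.52 RFU was above detection on 2 arrays and its larval signal of 3.38 to 4.63 RFU on 4.

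Of the eIF2 complex, the alpha subunit, the target of the stress kinases, was above detection on 1 array at most in any RNA and was not tested. The beta subunit had negative heart over aorta ratios on all 4 arrays, at -0.61, -0.58, -0.08 and -0.45, with a fit of -0.43 (SE 0.16) that did not pass (adjusted p = 0.196). Against the larva it stood at 0.23, -0.17, 0.11 and 0.75, with a fit of 0.23 (SE 0.17).

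The 5 subunits of eIF2B gave 4 tested genes in each comparison, since eIF2B-alpha (eIF2Balpha) was above detection on no array. The delta subunit, eIF2B-delta, was negative on all 4 heart and aorta arrays, at -0.42, -0.42, -0.41 and -0.14, with a fit of -0.35 (SE 0.14, unadjusted p = 0.0451, adjusted p = 0.227). The beta, gamma and epsilon subunits had fits of -0.24, -0.05 and -0.26, and each of these subunits had arrays of both signs. Against the larva eIF2B-beta was the factor nearest to the threshold without passing it. Before dye normalisation its signal was 14.0, 16.5, 17.3 and 14.5 RFU in vessel and 8.13, 11.8, 11.2 and 11.7 RFU in larva. Its ratios of 0.35, 0.28, 0.22 and 0.85 were all positive. The fit was 0.43 (SE 0.16, adjusted p = 0.0693). The gamma subunit stood at 0.26, epsilon at 0.07 and delta at -0.15, where the delta arrays gave 0.10, -0.45, 0.21 and -0.47.

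The eIF3 subunits chosen by the rule were eIF3-S10, eIF3-S9, eIF3-S8, eIF-3p66 and eIF-3p40, and none passed. The core subunit eIF3-S10 (eIF3a) was not tested, being above detection on 1 heart array and on no other. The core subunits eIF3-S9 (eIF3b) and eIF3-S8 (eIF3c) had fits of 0.05 and -0.25 between heart and aorta and of 0.06 and -0.04 against the larva. The subunit eIF-3p66 (eIF3d1), whose human counterpart can bind the cap, was negative on all 4 heart and aorta arrays, at -0.51, -0.26, -0.06 and -0.59, with a fit of -0.36 (SE 0.17, adjusted p = 0.276). Against the larva it gave -0.13, 0.22, -0.05 and 0.77. The subunit eIF-3p40 (eIF3h) was too dim for a test between heart and aorta and stood at 0.06 (SE 0.09) against the larva, with 1 vessel and 2 larval arrays above detection.

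The RNA helicase eIF-4a (eIF4A) was read by 3 oligonucleotides, of which one was spotted 16 times. The 16 spots lay in spot row 18, spot columns 3 to 10, of the blocks of column 2, rows 9 and 10. They measured the spread between spots in that part of an array and not across all of it. Their mean heart over aorta ratio was 0.17, 0.16, -0.73 and -0.98 on replicates 1 to 4, with an SD between spots of 0.07, 0.15, 0.19 and 0.10. The spots of replicates 1 and 2 ran from -0.02 to 0.51 and those of replicates 3 and 4 from -1.19 to -0.54. The difference between these pairs of replicates was larger than the spread among these 16 spots. The fit was -0.35 (SE 0.13, adjusted p = 0.183). Against the larva the same spots had means of -0.18, 0.04, 0.31 and 0.21, with an SD of 0.05 to 0.16 and a fit of 0.10 (SE 0.13).

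The other eIF-4a oligonucleotides differed between themselves. The one in the block of column 1, row 1, which matches 4 of 4 transcripts, gave 0.30, 0.03, -0.40 and -0.62 between heart and aorta and -0.00, -0.30, 0.34 and 0.34 against the larva. The one in column 1, row 7, which matches 2 of 4 transcripts, gave -0.51, -0.20, 0.59 and -0.21 between heart and aorta and 0.72, 0.61, 0.12 and -0.46 against the larva. The first had the sign of the 16 spots on all 4 heart and aorta arrays, and against the larva it was at -0.30 on replicate 2 beside 0.04 for the 16 spots. The second had the opposite sign on replicates 1, 2 and 3 between heart and aorta and on replicates 1 and 4 against the larva. The 3 fits were -0.17, -0.08 and -0.35 between heart and aorta and 0.10, 0.25 and 0.10 against the larva, each pair of 95% intervals overlapping. The related helicase eIF4AIII (CG7483), a core protein of the exon junction complex, was above detection on no array in any RNA.

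**Figure D2:**
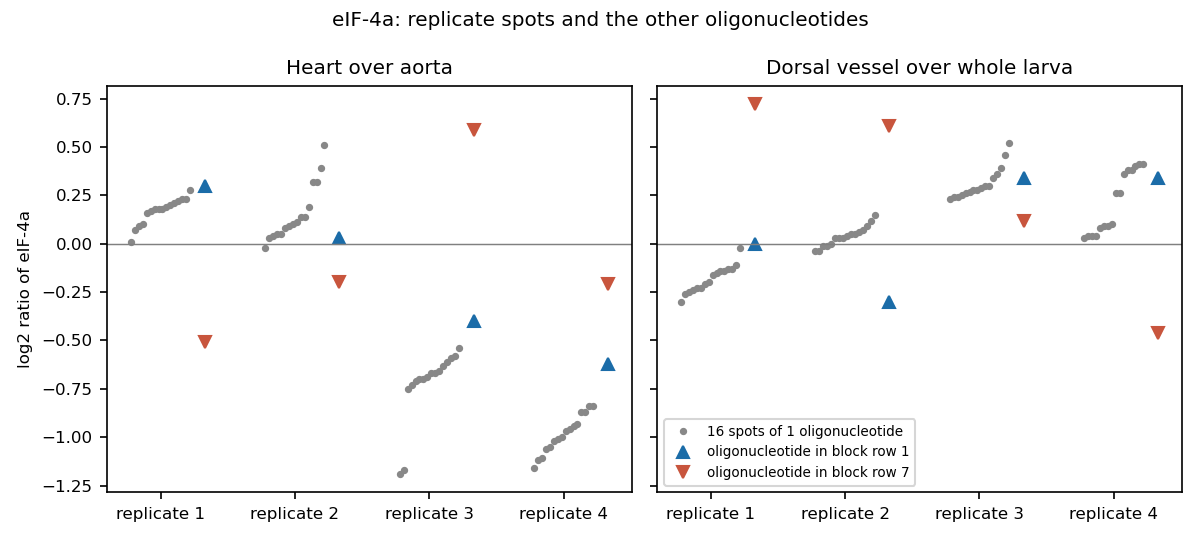
Log2 ratio (y axis) of eIF-4a on each array (x axis), for heart over aorta at the left and dorsal vessel over whole larva at the right. Grey points are the 16 spots of 1 oligonucleotide in rising order, and triangles the other oligonucleotides. The grey points of heart and aorta replicate 2 run from -0.02 to 0.51, and heart and aorta replicates 1 and 2 (means of 0.17 and 0.16) stand apart from replicates 3 and 4 (-0.73 and -0.98).

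The cap-binding protein eIF-4E (eIF4E1) was measured by an oligonucleotide that matches 7 of 7 transcripts, and its ratios changed sign with the dyes in both comparisons. Its signal was 320, 445, 173 and 208 RFU in heart and 132, 261, 328 and 279 RFU in aorta. The ratios were 0.92, 0.28, -1.05 and -0.96, with a fit of -0.20 (SE 0.14, adjusted p = 0.473). Against the larva they were -0.85, -0.49, 0.31 and 0.70, with a fit of -0.08 (SE 0.15, 95% interval -0.43 to 0.26). On all 8 arrays the Cy5 channel was the brighter one at this spot and at the Ef1alpha48D spot. That was the case for 5 of 7498 oligonucleotides tested in either comparison (0.0667%), while Cy3 was the brighter channel on all 8 arrays for 333 (4.44%), eIF6 among them. After normalisation the Cy5 side of Ef1alpha48D was positive on 5 of 8 arrays and that of eIF-4E on 8. The second eIF-4E oligonucleotide, which matches 1 of 7 transcripts, was above detection on 1 vessel array and on no other.

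The scaffold eIF-4G (eIF4G1) was read with care for its grid. As listed, its ratios against the larva were -0.19, -0.39, -0.52 and -0.57, all negative, with a fit of -0.41 (SE 0.09, adjusted p = 0.0111). Read where the grid was found, replicates 1 and 2 gave -0.23 and 0.07, and the fit of -0.31 (SE 0.11) no longer passed (adjusted p = 0.0604). With the displaced arrays left out the value was -0.43 (SE 0.20, adjusted p = 0.144), without replicate 2 it was -0.37 (adjusted p = 0.0603), and with median centring it was 0.01. Replicates 3 and 4, whose grid was in place, gave -0.52 and -0.57 in either reading.

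In the comparison of heart and aorta, eIF-4G as listed stood at -0.41, -0.31, 0.00 and -0.14, with a fit of -0.21 (SE 0.08, adjusted p = 0.201). The value of 0.00 came from a spot of 1.67 RFU in heart and 1.03 RFU in aorta, where the other arrays gave 75.8 to 109 RFU. At the found position that array gave 105 and 71.4 RFU and a ratio of 0.36, and the fit was -0.12 (SE 0.11, adjusted p = 0.564).

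**Figure D3:**
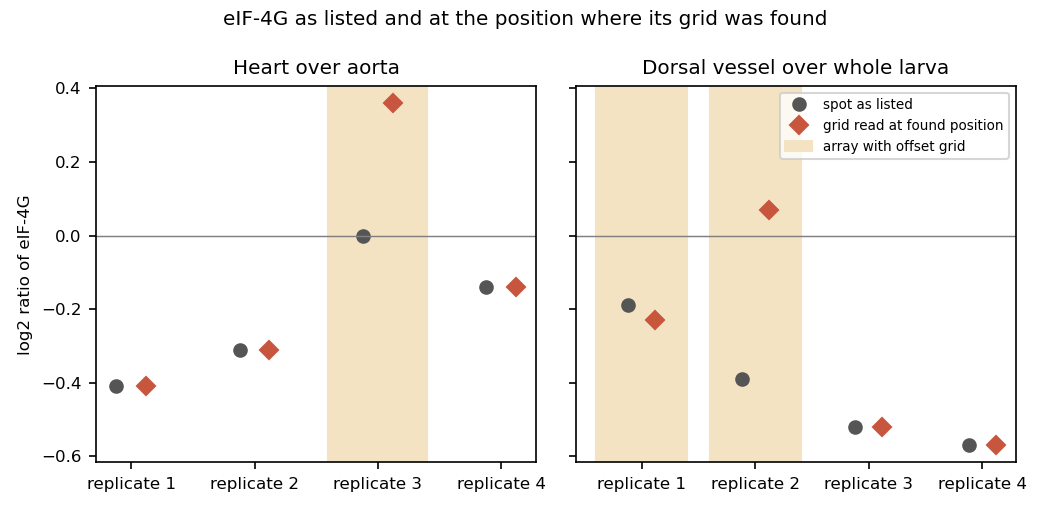
Log2 ratio (y axis) of eIF-4G on each array (x axis), with grey circles for the spot as listed and red diamonds for the position where the grid of its block was found. Shaded arrays have the displaced grid. Of the 3 shaded arrays, vessel replicate 2 moves from -0.39 to 0.07 and heart replicate 3 from 0.00 to 0.36, while vessel replicate 1 moves from -0.19 to -0.23.

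The anti-association factor eIF6, which keeps the ribosomal subunits apart, was near the limit of detection. It was above detection on 2 aorta arrays and on no heart array, and its heart over aorta ratio of -0.21 (95% interval -0.54 to 0.11) did not pass (adjusted p = 0.434). It was not tested against the larva.

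Among the elongation factors, Ef1alpha100E (eEF1alpha2), the second gene for eEF1A, was the factor furthest from 0. Its signal was 2.74, 1.71, 1.40 and 1.02 RFU in vessel, above detection on no array. In larva it was 14.9, 6.07, 10.2 and 11.3 RFU, above detection on 4. The log2 ratios were -2.01, -1.48, -2.04 and -1.69, with a fit of -1.81 (SE 0.21, 95% interval -2.31 to -1.30, adjusted p = 0.00101). Since the vessel signal was not above detection, that size is set in part by the background step. The call held in every alternative run, while the value moved from -0.21 with an offset of 50 RFU to -2.61 with no correction.

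On the heart and aorta arrays Ef1alpha100E was above detection on 3 heart arrays and 1 aorta array. The signal was 6.67, 2.94, 4.30 and 2.93 RFU in heart and 1.26, 2.16, 3.93 and 1.41 RFU in aorta, with overlapping ranges. The ratios of 1.28, 0.30, -0.19 and 0.20 gave a fit of 0.40 (SE 0.21, adjusted p = 0.344).

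The other eEF1A gene, Ef1alpha48D (eEF1alpha1), was above detection in every RNA on every array and had the largest SE of the tested factors in both comparisons. Its signal was 563, 755, 353 and 157 RFU in heart and 451, 502, 681 and 799 RFU in aorta. The ratios were -0.00, -0.00, -1.04 and -2.91, with a fit of -0.99 (SE 0.38, 95% interval -1.88 to -0.10) that did not pass (adjusted p = 0.194). Against the larva they were -1.38, -1.13, -0.63 and 1.45, where replicate 4 lay opposite to the rest, and the fit was -0.42 (SE 0.38, adjusted p = 0.386).

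Within each array, the ratio of Ef1alpha100E exceeded that of Ef1alpha48D between heart and aorta by 1.28, 0.30, 0.84 and 3.12, a mean of 1.39 (SD 1.22, n = 4). Against the larva it was below it by -0.63, -0.36, -1.41 and -3.14, a mean of -1.38 (SD 1.25). Ef1alpha100E was above detection on 0 vessel arrays and 1 aorta array, so these differences are in part set by the background step. The ratio of Ef1alpha48D also moved with the dyes. Its mean was -0.00 on heart and aorta replicates 1 and 2 and -1.98 on replicates 3 and 4. Against the larva these means were -1.26 and 0.41. The part of the dyes in the differences was not tested. The differences had the same sign on all 4 arrays of a comparison. That agreement alone fixes an exact two-sided sign-flip test at p = 0.125 in both comparisons, the smallest that 4 arrays allow. The test therefore adds nothing to it.

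The exchange factor subunit Ef1beta (eEF1beta) was the only factor called higher in the vessel with the settings used here. Its signal was 97.1, 105, 107 and 91.3 RFU in vessel and 37.2, 59.5, 40.4 and 46.4 RFU in larva before dye normalisation. The ratios of 0.87, 0.54, 0.63 and 1.16 gave a fit of 0.80 (SE 0.15, n = 4), 1.74-fold, with an adjusted p of 0.00815. The call held in every alternative run, at 0.62 to 1.20. The same oligonucleotide gave, between heart and aorta, -0.68, -0.55, 0.04 and -0.09, with a fit of -0.32 (95% interval -0.68 to 0.04, adjusted p = 0.284).

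**Figure D4:**
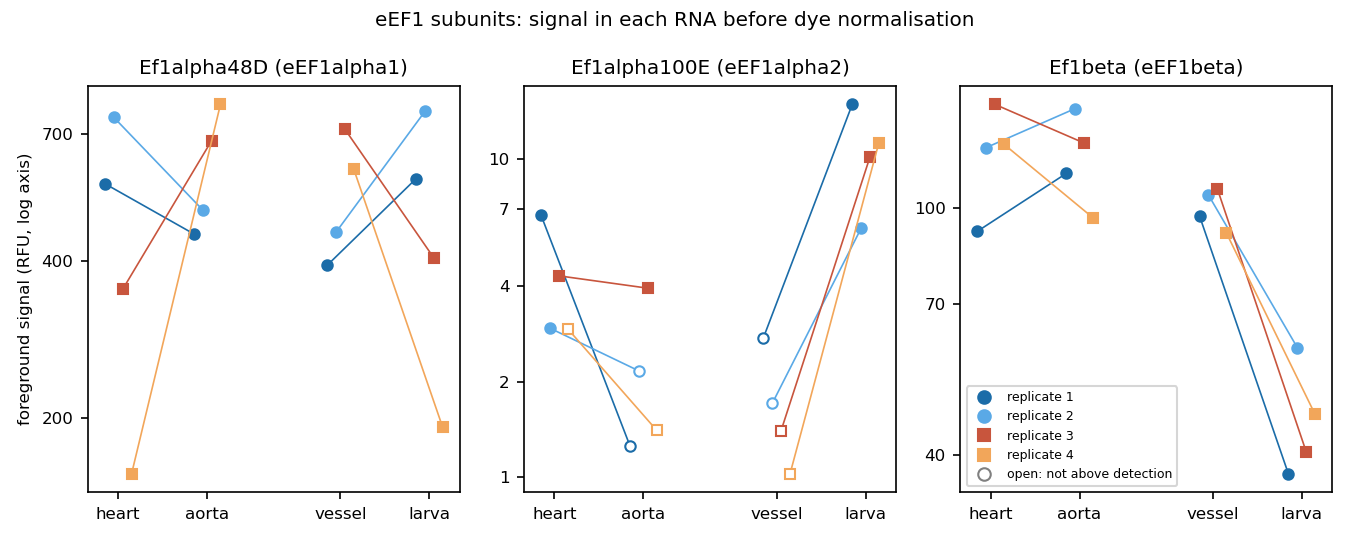
Foreground signal in RFU (log y axis) of Ef1alpha48D, Ef1alpha100E and Ef1beta in each RNA (x axis) before dye normalisation, with a line between the RNAs of an array. Open symbols are not above detection. The Ef1alpha48D lines cross in both comparisons. The 4 vessel points of Ef1alpha100E are open at 1.02 to 2.74 RFU. For Ef1beta the vessel points lie at 91.3 to 107 RFU and the larval points at 37.2 to 59.5 RFU.

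The other exchange subunits did not pass. The delta subunit eEF1delta was negative on all 4 heart and aorta arrays, at -0.60, -0.72, -0.09 and -0.69, with a fit of -0.53 (SE 0.24, adjusted p = 0.260). Against the larva it gave -0.09, -0.01, 0.07 and 1.30, with a fit of 0.32 (SE 0.24) and replicate 4 far above the rest. The gamma subunit Ef1gamma (eEF1gamma), at 495 to 937 RFU in heart and vessel, gave 0.27, 0.10, -0.42 and -1.34 between heart and aorta. Against the larva it gave -0.53, -0.40, 0.34 and 1.03, changing sign with the dyes, and its fit of 0.11 (adjusted p = 0.628) passed only with median centring (0.92) or an offset of 50 RFU (0.51).

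The translocase Ef2b (eEF2) was negative on all 4 arrays against the larva, at -0.68, -0.13, -0.49 and -0.24, with a fit of -0.38 (SE 0.23, adjusted p = 0.210). The heart over aorta ratios were 0.23, 0.03, 0.17 and -1.24, and the fit was -0.20 (SE 0.23). The hypusine-bearing factor eIF-5A (eEF5), named for initiation but active in elongation, gave -0.27, -0.79, 0.60 and -0.43 between heart and aorta and 0.45, 0.49, -0.34 and 0.51 against the larva. Its fit against the larva was 0.28 (SE 0.20, adjusted p = 0.2999), and it passed with median centring only (0.71).

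The dye orientations were also set against each other. The mean of replicates 1 and 2 and that of replicates 3 and 4 had opposite signs in 10 of 23 oligonucleotides between heart and aorta (43.5%, against 50.6% of all tested oligonucleotides with 4 values) and in 9 of 23 against the larva (39.1%, against 18.1%). Across 5440 oligonucleotides tested in both comparisons, the dye effects of the 2 sets of arrays correlated at rho = 0.0565.

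The genes of the ribosomal proteins, the structural parts of the ribosome, were counted beside the factors. Of 91 tested oligonucleotides of cytoplasmic ribosomal proteins 31 were higher in vessel, 3 were lower and 57 did not pass against the larva, with a median of 0.44, beside 14.2 and 21.9% of all oligonucleotides higher and lower. The array medians were 0.31, 0.23, 0.25 and 1.02, and replicate 4 was the highest, as it was for the factors. Without replicate 4, 14 of 82 were higher and 1 was lower, beside 526 and 919 of 6076 among all. Without replicate 3, 16 of 84 were higher and 2 lower, beside 519 and 817 of 6305 among all. The higher count was 67 with median centring, 54 with an offset of 50 RFU and 42 with a dye coefficient for each comparison. Among all 7057 oligonucleotides 859, 865 and 1225 were higher in these runs. In heart 2 of 90, RpL6 and RpS19a, were lower than in aorta, beside 0.766% of all tested oligonucleotides. The count was 0 without replicate 1 or 2 and 1 without replicate 3 or 4. It was 13 with a dye coefficient for each comparison (239 of 6008 among all). With detection on all 4 arrays it was 5 of 76 (85 of 4254 among all). Of the 90, 82 were negative, with a median of -0.41, beside 49.8% and 0.00 for all. Under median centring 55 of 90 were negative, with a median of -0.06, beside 26.2% and 0.16 for all.

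**Figure D5:**
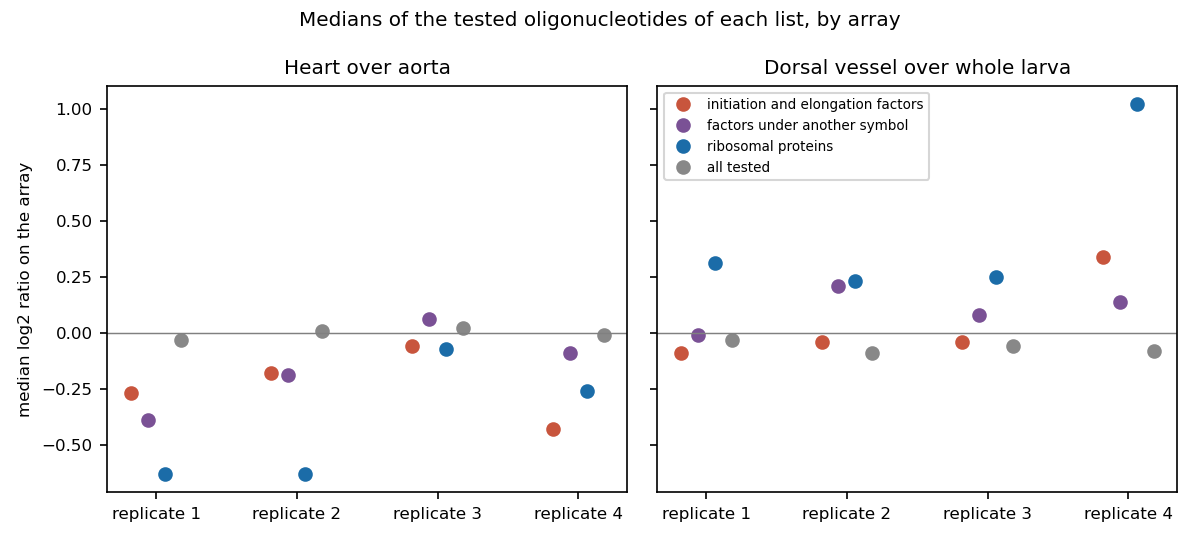
Median log2 ratio (y axis) of the tested oligonucleotides of each list on each array (x axis). The factors lie at -0.43 to -0.06 between heart and aorta and at -0.09 to 0.34 against the larva. The ribosomal proteins lie at -0.63 to -0.07 and 0.23 to 1.02, and the median of all tested oligonucleotides stays within 0.09 of 0.

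Of the partners of the initiation factors under other names, 8 oligonucleotides were tested in each comparison. The shares over all oligonucleotides, for these and the next list, were 14.2% higher and 21.9% lower against the larva, and 21.0% at an unadjusted p under 0.05 between heart and aorta. None passed between heart and aorta in limma, where 2 had an unadjusted p under 0.05, Paip2 at 0.47 and Rack1 at -0.67. Against the larva Int6 (eIF3e) was higher at 0.42 (SE 0.13, adjusted p = 0.0442) and Paip2, which binds the poly(A)-binding protein and lowers translation, was lower at -0.58 (SE 0.19, adjusted p = 0.0470), and neither passed without replicate 2, 3 or 4. The poly(A)-binding protein gene pAbp stood at -0.05 between heart and aorta and at -0.48 (adjusted p = 0.259) against the larva.

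Of the regulators of initiation, 11 oligonucleotides were tested between heart and aorta and none passed in limma (2 at an unadjusted p under 0.05, Lk6 at 0.60 and Dp1 at -0.39). Against the larva 12 were tested. The TOR activator Rheb was higher at 0.39 (adjusted p = 0.0316) and RpS6, the target of S6 kinase, at 0.63 (adjusted p = 0.0301), while Dp1, an RNA-binding protein with KH domains, was lower at -1.17 (SE 0.16, adjusted p = 0.00213). Rheb lost its call without replicate 1, 2 or 4 and RpS6 without replicate 1 or 4, and Dp1 kept it in every alternative run. Thor, the eIF4E-binding protein of the fly, gave 0.73, 0.45, -0.37 and 0.77 between heart and aorta (fit 0.39, SE 0.29) and 0.08, 0.43, -1.08 and 0.30 against the larva (fit -0.07, SE 0.29). S6k stood at 0.25 and -0.04. Of the termination and rescue factors 1 and 2 oligonucleotides were tested in the 2 comparisons and of the mitochondrial factors 3 and 2, and none of these passed. Among them pelo (-0.38, from 3 arrays since replicate 3 had no value) and CG12736 (mEFTu2, 0.43) had an unadjusted p under 0.05 against the larva. The share over all tested oligonucleotides at that level was 49.6%.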

How the data were processed

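The 8 arrays were grouped by their titles and channel labels, with 4 biological replicates in each comparison per the series' design text. Spot intensities were deposited as foreground and local background in RFU, per the file headers, with bad spots marked. The authors also deposited a table of normalised log2 ratios, aorta over heart and vessel over larva, used here as an alternative. The submitters' processing notes name limma; its version is not given in the sources used here. RFU were scaled by 36.9, corrected with normexp (offset 50, equal to 1.35 RFU) and normalised by loess (span 0.3, 4 iterations) in R 4.3.3 with limma 3.58.1. Spots of an oligonucleotide were averaged. All 8 arrays were fitted with a coefficient for each comparison and a shared dye coefficient (5 residual degrees of freedom), and p-values were adjusted by Benjamini-Hochberg over all tested oligonucleotides of a comparison. The number of arrays limits the precision. Steps were tested on simulated data. The genes and lists were chosen with earlier results of these data known. Genes to be named with values were those past the threshold, a fixed set of core factors with the eIF4E paralogues and eIF4B, and Thor, S6k and pAbp. Every factor chosen by the rule was to be accounted for, and values of others among them were given as well. Rack1, Lk6, pelo and CG12736 (unadjusted p under 0.05) and further eIF3 subunits were named after their values were seen. No oligonucleotide sequence was used here.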

Additional observations from a re-analysis of the deposited data

Results flagged for a closer look

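In 5 of 46 series of 4 arrays, 1 array stood far from the other 3 for a factor, by the ratio of its gap to the whole range. Chance gives about 1 in 20, and over all tested oligonucleotides the share was 4.65% between heart and aorta and 6.02% against the larva. The series share arrays and are not independent. Between heart and aorta it was replicate 4 in each case. eIF5B was at -0.34 there, beside 0.10 to 0.16 on the other arrays. eIF2B-delta was at -0.14, beside -0.42 to -0.41. Ef2b was at -1.24, beside 0.03 to 0.23. Against the larva, eIF-5A was at -0.34 on replicate 3, beside 0.45 to 0.51, and eEF1delta at 1.30 on replicate 4, beside -0.09 to 0.07. None of these oligonucleotides passed the limma test with all arrays, and the cause was not tested.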

How the results depend on the processing

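Between heart and aorta 0 factor oligonucleotides passed under each of 17 alternatives, with 1 to 10 at an unadjusted p under 0.05, and the median of -0.22 became 0.10 with median centring. Against the larva the 3 calls became 7 of 23 with an offset of 50 RFU. The share over all oligonucleotides fell from 36.1% to 25.6% with that offset. The 7 were Ef1alpha100E, Ef1beta, Ef1gamma, eIF-1A, eIF2B-beta and 2 oligonucleotides of eIF-4a, and eIF-1A turned to 0.27 (limma adjusted p = 0.0334). The median of 0.07 became 0.29 with median centring, where eIF-4G turned to 0.01. The cause was not tested. Leaving out 1 replicate gave medians of -0.31 to -0.18 and 0 calls between heart and aorta, and medians of -0.03 to 0.12 and 2 to 3 calls against the larva. Ef1alpha100E and Ef1beta passed in all 16 alternatives against the larva and eIF-4G in 10. Over all oligonucleotides, the 159 calls between heart and aorta became 62 with an offset of 50 RFU (37 higher, 25 lower), 97 with median centring, 67 without a filter, 268 with detection on all 4 arrays, 8 with only the 4 arrays of the comparison, 480 with a dye coefficient for each comparison, 40 to 122 without a replicate and 25 without replicates 1 and 3. The 2546 calls against the larva fell to 1336 to 1445 without replicate 2, 3 or 4. No paired analysis was possible because each value is already a ratio within an array and no result sets one comparison's arrays against the other's. The readings at the found grid position and without replicates 1 and 3 were chosen after seeing the data. Dim spots limit the sizes near background.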

Other observations

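Further initiation and elongation factors lay on the array under other symbols, 25 genes with 26 oligonucleotides, found by their current RefSeq name after the values were known. Between heart and aorta 16 were tested and 0 passed in limma, with 0 at an unadjusted p under 0.05 and a median of -0.08. Over all oligonucleotides 2.65% passed there and 21.0% had an unadjusted p under 0.05. Against the larva 20 were tested, of which 5 were higher and 3 lower, with a median of 0.15, where 14.2 and 21.9% of all oligonucleotides were higher and lower. The 5 higher ones were eIF3f1 (0.91, SE 0.20), eIF3k (0.76, SE 0.14), eIF3m (0.72, SE 0.21), eIF3l (0.65, SE 0.16) and eIF3e (0.42, SE 0.13). The eIF3e oligonucleotide is that of Int6, which was also counted among the partners above. The array ratios of eIF3k were 0.87, 0.95, 0.43 and 0.78, and it passed in all 16 alternatives. The count of higher genes fell to 1 of 17 tested without replicate 2, 3 of 17 without replicate 3 and 2 of 16 without replicate 4. That of lower genes fell to 0 in each. Over all oligonucleotides 521 of 6368, 519 of 6305 and 526 of 6076 were higher in these runs, and 875, 817 and 919 were lower. Other subunits of eIF3 did not pass: eIF3i stood at 0.48 (adjusted p = 0.0605) and eIF3g1 at 0.32, while eIF3g2 stood at -0.17. The second copies eIF3d2 and eIF3f2, above detection on no vessel array, also did not pass and were negative on all 4 arrays. The tested subunits eIF3b, eIF3c, eIF3d1 and eIF3h did not pass either.

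The 3 lower ones were eIF4E3 (-3.19, SE 0.84, adjusted p = 0.0260), eIF4E6 (-0.59, SE 0.16, adjusted p = 0.0275) and eIF4H1 (-0.57, SE 0.18, adjusted p = 0.0468). eIF4E3, a cap-binding protein known from male germ cells, gave -3.01, -5.04, -2.07 and -2.63 against the larva. Between heart and aorta it gave 3.65, -1.07, -3.14 and 0.58, where the testis markers had medians of 3.27, -0.52, -2.72 and 0.24 on the same arrays. The part of testis RNA in these values was not tested. eIF4E6 was above detection on no vessel array and 4 larval arrays, its value ranged from -1.01 to -0.06 over the alternatives, and it passed in 11 of 16. eIF4E4 and eIF4E5, above detection on no vessel array and 3 larval arrays, did not pass, eIF4E7 was above detection on no array, and eIF4B stood at -0.13 and -0.07 in the 2 comparisons.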
